A study of Arabidopsis thaliana with 3 samples.

Results

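The 2 mutants were compared with each other, *abo4* over *mms19-1*, across the 19771 loci whose mean over the 3 deposited columns was at least 1 FPKM, of 33559 loci in the table. FPKM counts fragments per kilobase of transcript, scaled by sequencing depth. Polyadenylated RNA of *Arabidopsis thaliana* seedlings, 14 days old and of Col background, was sequenced in 3 libraries, 1 per genotype: the wild type, *mms19-1*, a T-DNA insertion line in *MMS19*, and *abo4*, which carries a weak point-mutant allele of *ABO4*. No treatment is named in the labels. Each mutant is represented by 1 allele in 1 library, so the differences below have no replicate check and are described without any test. The wild-type value stands beside each pair as a further value only.

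MMS19 is a late-acting factor of cytosolic iron-sulfur cluster assembly, which hands clusters to nuclear enzymes of DNA replication, repair and demethylation. ABO4 is the catalytic subunit of DNA polymerase ε, the leading-strand replicase and itself an iron-sulfur protein. Faults in replication or repair are known to switch on a plant DNA damage response run by the transcription factor SOG1. The study asked how far the 2 mutations act on the same genes. A direct comparison shows the genes at which the 2 transcriptomes stood apart.

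The libraries were close to each other at most genes. With 0.1 FPKM added to each value, the log2 ratio of *abo4* over *mms19-1* had a median of 0.01 and lay between -0.65 and 0.66 at the middle 90% of members, and 87.9% of members were within 1.5-fold. More than 2-fold higher in *abo4* were 414 members (2.09%), and more than 2-fold lower were 457 (2.31%). On either side of the upper limit stood *MIR779* (1.0004) and AT2G07722 (0.998), and on either side of the lower limit AT3G49790 (-1.0005) and AT2G41250 (-0.998). Beyond 4-fold, 104 members were higher and 131 lower. The summed FPKM of *abo4* was 1.01 times that of *mms19-1*, and the library sizes estimated from the lowest values of short genes were about 51466249 reads for *mms19-1* and 49759840 for *abo4*. Among the 11753 members with a mean of at least 10 FPKM, 106 were higher and 212 lower.

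**Figure D1:**
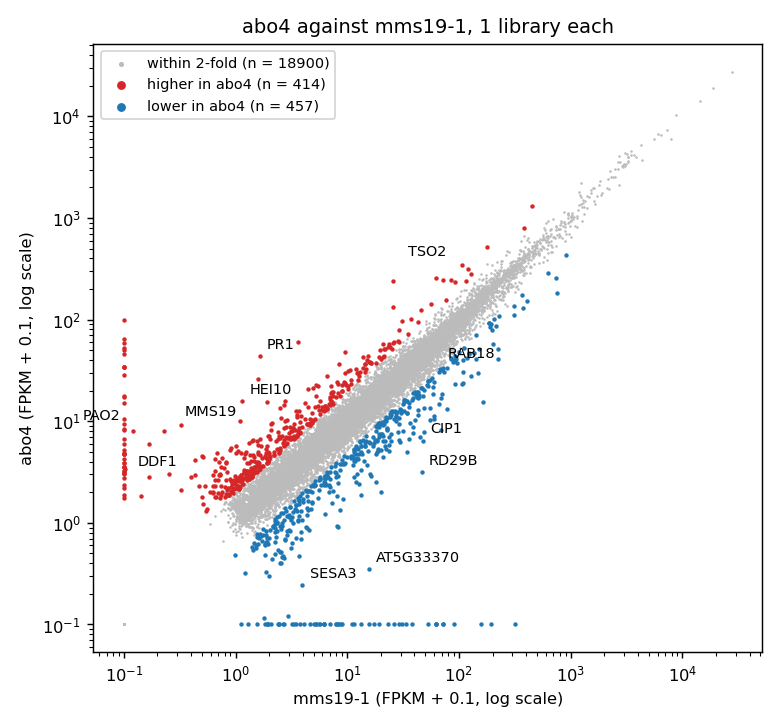
FPKM + 0.1 in *mms19-1* (x axis, log scale) and in *abo4* (y axis, log scale) for the 19771 members, 1 point per locus, with members past 2-fold in red (414, higher in *abo4*) or blue (457, lower). Points on the left and lower edges are loci listed at 0 in one mutant, and labelled genes are described in the text.

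Part of these members rested on a handful of reads. At 171 members all 3 values equalled 0 to 5 whole reads of a single short transcript length, and of these 52 were in the higher and 52 in the lower set, which leaves 362 and 405. Such loci also led the ranking with 1 FPKM added: 5 of the 15 highest and 10 of the 15 lowest protein-coding members were of this kind. Examples are AT3G14452, listed at 0 in *mms19-1* and at 17.1 FPKM in *abo4*, and AT3G12835, at 26.3 FPKM in *mms19-1* and listed at 0 in *abo4*. Genes named below have longer transcripts and more reads unless stated. Where an interval follows a ratio, it is the 95% exact interval of the log2 ratio of estimated reads, without the added 0.1 FPKM, and covers counting error only. By that interval alone, 190 members lay wholly above 2-fold and 261 wholly below.

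The mutated genes were read first. *MMS19* (AT5G48120, MET18 in the annotation, chr5:19507397-19514895 of TAIR10.1) stood at 10.1, 0.228 and 9.01 FPKM (wild type, *mms19-1* and *abo4*), a log2 ratio of 4.80. The insertion line thus had the low value, as its label says. *ABO4* (AT1G08260, TIL1 in the annotation, chr1:2588854-2606892) had 5.03, 6.95 and 8.09 FPKM, a ratio of 0.22, and a point mutation leaves its level uninformative about the label. *ABO4* overlaps neighbours on the opposite strand, whose reads cannot be told apart where strand is not recorded. None of the 10 nearest members on each side of either gene was past 2-fold. The other polymerase subunits and cytosolic iron-sulfur factors, 9 members, held ratios from -0.18 for *CIA1* to 0.57 for *DPB2*, a further subunit of polymerase ε. The 16 reference genes had a median of 0.11 and none past 2-fold.

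Among defence genes under salicylic acid, 24 of 29 listed reached the filter. Of these, 10 were more than 2-fold higher in *abo4* than in *mms19-1* and none lower, with a median log2 ratio of 0.82 against 0.01 for all members. This list and those below were chosen with earlier results of these data known. Their counts stand beside 2.09% higher and 2.31% lower among all members. *WRKY38*, among the 10, had 0.571, 0.431 and 2.21 FPKM (wild type, *mms19-1* and *abo4*) and reached the filter only through *abo4*. *PR1*, the classic marker of the salicylic acid response, had 7.09, 1.54 and 43.7 FPKM (wild type, *mms19-1* and *abo4*), a ratio of 4.74 (interval 4.45 to 5.25). The wild type lay between the mutants, so the 2 mutants stood on opposite sides of it. The same order held for *PR2*, a secreted glucanase (4.71, 1.99 and 8.13 FPKM), and for *SARD1*, a regulator that switches on salicylic acid synthesis (2.53, 1.44 and 6.32 FPKM). *WRKY54*, a transcription factor of this response, followed it too (1.38, 0.721 and 3.84 FPKM). *WRKY18* was different in that both mutants stood above the wild type (4.88, 6.86 and 17.3 FPKM). A pair of defence genes outside the list stood near the top of the table. *LURP1*, induced during defence against downy mildew, had 9.29, 3.54 and 59.5 FPKM, and *PCC1*, a pathogen-responsive gene, had 3.08, 1.48 and 25.7. Close to *PCC1* on chromosome 3, AT3G22235, a cysteine-rich membrane-module gene, had 1.82, 0.990 and 9.92 FPKM, a ratio of 3.20.

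Of 29 genes that respond rapidly to touch, wounding or cold, 10 were more than 2-fold higher in *abo4* and 1 lower, with a median of 0.69. *RRTF1*, an ERF transcription factor of redox signalling, had 0.257, 0.330 and 4.09 FPKM across wild type, *mms19-1* and *abo4*. The calmodulin-like gene *CML37* had 0.820, 0.398 and 4.46 FPKM, a ratio of 3.19. Both *RRTF1* and *CML37* reached the filter only through *abo4*, so the filter had a part in the count of higher genes. Among abundant members, *TCH3*, a touch-induced calmodulin-like gene, had 190, 92.6 and 236 FPKM, and *ZAT10*, a zinc-finger repressor, had 16.1, 8.12 and 22.9. In both of these *mms19-1* was the library furthest from the wild type. *TCH4*, a cell-wall xyloglucan enzyme, was the exception with 204, 193 and 90.6 FPKM, a ratio of -1.09. Outside the list, *DDF1*, a relative of the CBF cold regulators, had 0.451, 0.0671 and 5.81 FPKM (ratio 5.14), about 269 estimated reads in *abo4* against 3.21 in *mms19-1*. *DDF1* too reached the filter only through *abo4*. Jasmonate genes gave 5 higher and 1 lower of 27 (18.5% and 3.70%, against 2.09% and 2.31% of all members). *LOX3* and *LOX4*, lipoxygenases that start jasmonate synthesis, had ratios of 1.87 and 1.71, and the repressor gene *JAZ5* had 1.69. *CORI3*, a late jasmonate-induced gene, had -1.19 (52.8, 87.8 and 38.5 FPKM).

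**Figure D2:**
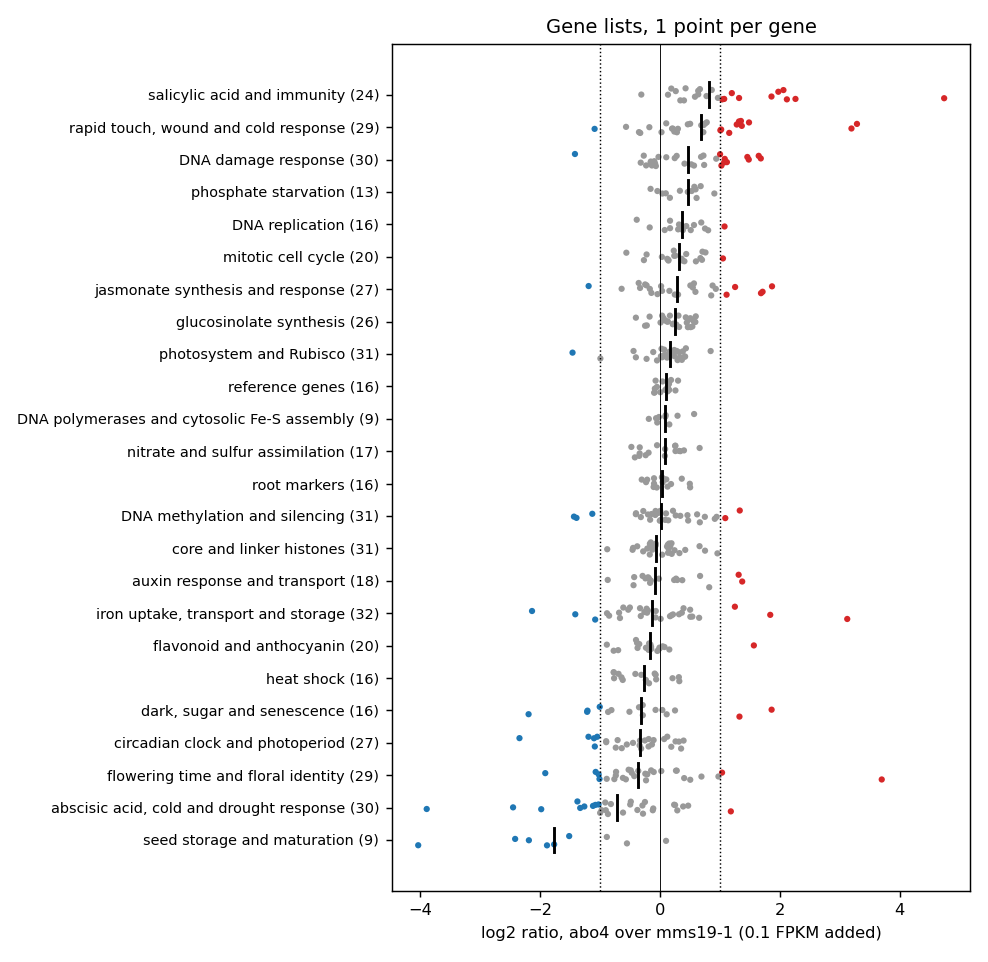
Log2 ratio of *abo4* over *mms19-1* (x axis, 0.1 FPKM added) for every member of 24 gene lists (rows, number of members in parentheses, ordered by median), 1 point per gene. Black bars are medians, dotted lines mark 2-fold, and red and blue points are past it. The salicylic acid list has a median of 0.82, and 4 of the 9 seed genes reached the filter only through *mms19-1*. In other lists, genes such as *RRTF1*, *CML37*, *WRKY38*, *NAS2* and *SDC* reached it only through *abo4*.

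Of 30 DNA damage response genes, 9 were more than 2-fold higher in *abo4* than in *mms19-1* and 1 lower. The median was 0.47, with 19 ratios above 0 and 11 below. *TSO2*, a small subunit of ribonucleotide reductase that supplies deoxynucleotides, had 61.5, 107 and 345 FPKM across wild type, *mms19-1* and *abo4*, a ratio of 1.68 (1.65 to 1.72). The wild type was the lowest library here. AT3G27630, annotated as a cyclin-dependent kinase inhibitor of the SMR type, had 3.31, 31.0 and 97.3 FPKM. *NAC044*, a transcription factor of the damage checkpoint, had 0.743, 2.40 and 6.77 FPKM. *XRI1*, needed for DNA repair after X-rays, followed the same order with 13.8, 28.4 and 61.8. The checkpoint kinase gene *WEE1* did not, since *mms19-1* stood at 1.57 FPKM beside 2.09 in the wild type and 4.56 in *abo4*. *BRCA1*, of homologous recombination, was ordered alike but within 2-fold (4.29, 11.1 and 21.4 FPKM, ratio 0.94). The mitotic cyclin gene *CYCB1;1*, a common reporter of damage, had a ratio of 0.52.

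*RAD50*, a subunit of the MRN break-sensing complex, was the one listed damage gene lower in *abo4*, with 14.7, 13.3 and 4.92 FPKM (ratio -1.42). Purines made up 58.0% of its transcript, which places it among the genes described further on. Replication genes were nearer to each other, with 14 ratios above 0 and 2 below. *CDC45*, a helicase cofactor, was the single member of 16 past 2-fold (2.05, 1.85 and 4.02 FPKM), while the list's median was 0.37. Of 20 mitotic cell cycle genes, *CDKB1;1*, a plant-specific mitotic kinase, was past 2-fold (1.05). The median was 0.31, with 17 ratios above 0 and 3 below. None of the 31 core and linker histone genes was past 2-fold.

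For 2 of the damage genes the letters upstream of the gene start are shown, because they hold the spaced palindrome that the damage regulator SOG1 is known to bind, CTT and AAG with 7 bases between. Capitals mark that match, and sequences are from the TAIR10.1 genome with RefSeq gene starts, 250 bases each, 5′ to 3′ toward the gene.
AT3G27630 (chr3:10231568-10231817, minus strand): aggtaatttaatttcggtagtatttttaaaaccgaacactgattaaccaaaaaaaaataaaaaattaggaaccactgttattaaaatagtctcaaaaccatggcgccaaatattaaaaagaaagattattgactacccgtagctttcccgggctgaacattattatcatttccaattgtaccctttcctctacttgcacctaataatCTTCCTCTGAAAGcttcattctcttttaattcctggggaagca
NAC044 (chr3:228825-229074, plus strand): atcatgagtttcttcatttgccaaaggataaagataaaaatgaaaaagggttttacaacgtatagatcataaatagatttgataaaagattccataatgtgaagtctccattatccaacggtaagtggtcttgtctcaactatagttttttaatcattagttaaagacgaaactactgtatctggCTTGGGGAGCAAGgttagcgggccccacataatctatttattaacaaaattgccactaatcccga
Among the 9 higher damage genes the motif was in the windows of 3, these and *RAD54*, whose window overlaps the gene AT3G19220. Of all 30 damage genes, higher or not, the motif was in the windows of 8. It was found, on either strand, in 8.85% of the upstream windows of 19698 members, in 10.5% of those higher and in 9.40% of those lower in *abo4*. The share was thus close to that of all members in both sets.

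Of 30 genes of the abscisic acid, cold and drought response, 1 was more than 2-fold higher in *abo4* and 9 lower, with a median of -0.72. *RD29B* (LTI65 in the annotation), a hydrophilic protein induced by abscisic acid, had 6.36, 46.3 and 3.03 FPKM across wild type, *mms19-1* and *abo4*, a ratio of -3.89 (-4.11 to -3.76). It was thus far above the wild type in *mms19-1*. *RAB18*, a dehydrin, had 129, 222 and 40.5 FPKM, with *abo4* furthest from the wild type. The transcription factor gene *RD26* had 30.1, 40.1 and 10.1 FPKM, and *ABI2*, a phosphatase that restrains abscisic acid signalling, had 14.4, 19.3 and 7.36. *GolS3*, a galactinol synthase of the cold response, went the other way with 2.06, 2.09 and 4.88. Purine content entered this list too: *RD29B*, *RAB18* and *HAI2* belong to the most purine-rich of 20 equal groups of members, and without that group 6 of 24 genes remained lower and 1 higher.

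Of 19 seed storage and maturation genes 9 reached the filter, and of these 6 were more than 2-fold lower in *abo4* and none higher. *SESA1*, *SESA2*, *SESA3* and *EM6* reached a mean of 1 FPKM only through *mms19-1*, where they were highest, so the count is no measure of the group. *SESA3*, a seed storage albumin, had 0.316, 3.86 and 0.143 FPKM, with about 112 reads in *mms19-1* against 4.00 in *abo4*. Its neighbours *SESA1* and *SESA2* had ratios of -1.51 and -2.41. *CRA1*, a cruciferin and the most abundant of the group, had 10.1, 18.8 and 5.03 FPKM. *OLEO4*, an oil-body protein, did not share this with 1.70, 2.09 and 2.25. The master regulators *ABI3*, *LEC1*, *LEC2* and *FUS3* were below the filter. A late embryogenesis gene outside the list, AT3G02480, had 21.1, 69.7 and 8.05 FPKM (ratio -3.10). Of 63 members annotated as late embryogenesis or dehydrin genes, a family gathered after values were seen, 12 were lower and 4 higher, with a median of -0.07.

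The upstream letters of *RD29B* and of the seed genes *EM6* (GEA6 in the annotation) and *PER1* are shown because they hold an ABRE, the site of abscisic acid-regulated bZIP factors (ACGTGTC or its reverse complement, in capitals). The motif was in the windows of 2 of the 9 lower abscisic acid genes, *RD29B* and *RAB18*, and of 2 of the 6 lower seed genes, *EM6* and *PER1*. It was not found in those of the others. The *RD29B* window also holds a CRT, CCGAC, the site of CBF and DREB factors.
RD29B (chr5:21236771-21237020, plus strand): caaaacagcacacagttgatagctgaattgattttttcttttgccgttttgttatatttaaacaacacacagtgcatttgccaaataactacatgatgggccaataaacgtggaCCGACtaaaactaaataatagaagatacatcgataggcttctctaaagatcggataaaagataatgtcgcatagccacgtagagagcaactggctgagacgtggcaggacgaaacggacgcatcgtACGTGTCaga
EM6 (chr2:16780369-16780618, minus strand): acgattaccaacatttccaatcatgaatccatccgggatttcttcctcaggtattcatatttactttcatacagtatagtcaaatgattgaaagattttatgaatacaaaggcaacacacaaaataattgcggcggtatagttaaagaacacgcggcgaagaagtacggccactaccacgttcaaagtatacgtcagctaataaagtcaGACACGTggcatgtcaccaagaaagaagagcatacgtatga
PER1 (chr1:17780179-17780428, plus strand): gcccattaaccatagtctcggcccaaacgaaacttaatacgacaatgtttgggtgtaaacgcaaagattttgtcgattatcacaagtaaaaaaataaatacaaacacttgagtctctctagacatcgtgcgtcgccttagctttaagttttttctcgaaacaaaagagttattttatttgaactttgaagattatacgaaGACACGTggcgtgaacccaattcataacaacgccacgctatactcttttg
ABRE letters were in the windows of 39 of the 447 members lower in *abo4* (8.72%), of 8 of the 408 higher (1.96%) and in 4.25% of all. The G-box CACGTG, which can overlap an ABRE, was in 12.8% of lower, 4.90% of higher and 7.32% of all windows. In the other direction, the heat shock element GAANNTTC was in 14.7% of higher, 6.49% of lower and 9.24% of all windows. W-box letters, TTGACC or TTGACT, sites of WRKY factors, were in 34.1% of higher, 25.7% of lower and 27.7% of all windows. They were in the window of *NIMIN-2* alone among the 10 salicylic acid genes higher in *abo4*. In the same order (higher, lower, all), CRT letters were in 12.5%, 15.4% and 12.9%, the evening element AAAATATCT in 4.41%, 2.68% and 2.46%, the GCC-box GCCGCC in 14, 11 and 394 windows of these sets, and the E2F site TTTCCCGC in 0.490%, 0.447% and 0.604%. These are counts of letters in windows, and both strands were read.

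**Figure D3:**
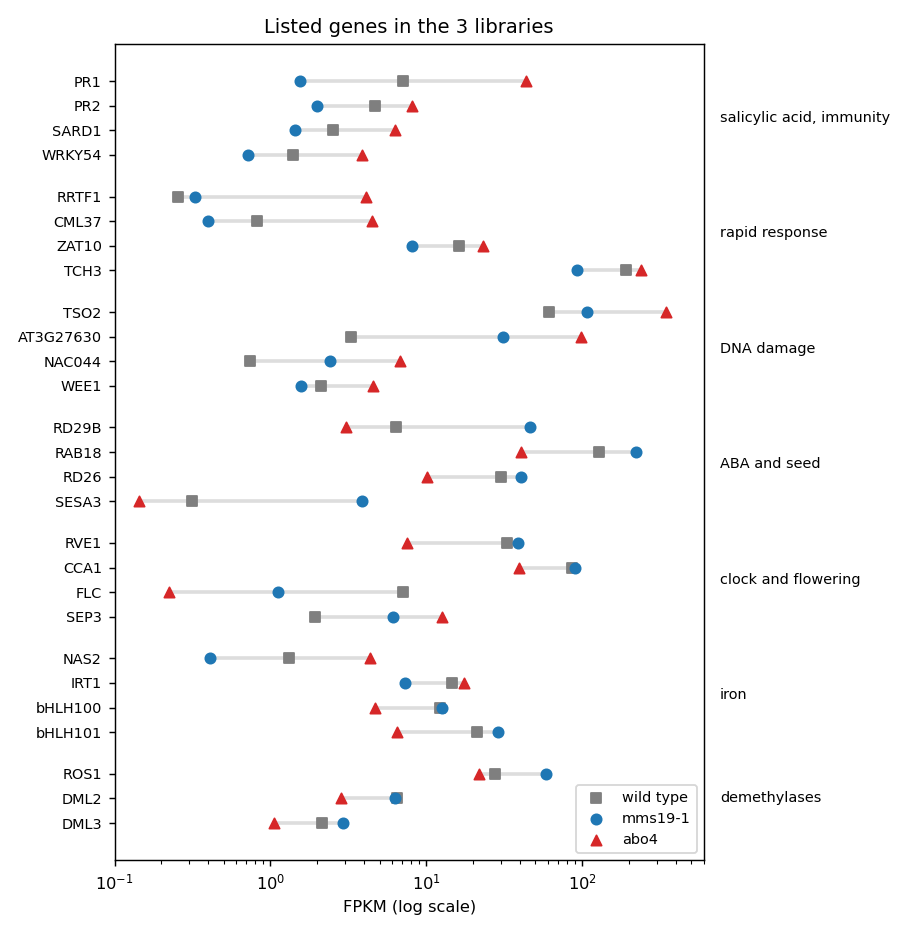
FPKM (x axis, log scale) of listed genes (rows) in the wild type (grey squares), *mms19-1* (blue circles) and *abo4* (red triangles), 1 library each. *abo4* is the highest library for the salicylic acid, rapid response and DNA damage genes shown and the lowest for the abscisic acid and seed genes, the clock genes *RVE1* and *CCA1*, *FLC* and the demethylases. The genes shown were picked from those past 2-fold, so the order of the mutants was largely set by that choice. *TCH4*, *RAD50* and *GolS3*, which went against their lists, are not shown.

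Of 29 flowering genes, 2 were more than 2-fold higher in *abo4*, *SEP3* and *MRD1*, and 4 were lower. *MRD1* was listed with them from the study's primers and is described with the gene it overlaps. *FLC*, the main floral repressor, had 7.03, 1.11 and 0.223 FPKM across wild type, *mms19-1* and *abo4*, a ratio of -1.91 with a wide interval of -3.58 to -1.32, and an annotated transcript overlaps it on the opposite strand. The floral activator gene *FT* had 0.274, 5.17 and 2.75 FPKM, a ratio of -0.89, so both mutants stood above the wild type. *SEP3*, a floral organ identity gene, had 1.93, 6.09 and 12.6 FPKM, while *SEP1* (AT5G15800) had the opposite order of the mutants (0.134, 4.15 and 2.46). *TEM1*, a repressor of *FT*, was highest in the wild type and lowest in *abo4* (134, 93.0 and 44.2 FPKM). The inflorescence regulator *TFL1* had a ratio of -1.02, and *SNZ*, an AP2-type repressor, had -1.01. *AP1*, *AP3*, *AG* and *LFY* were below the filter.

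Of 27 circadian clock and photoperiod genes none was more than 2-fold higher in *abo4* and 5 were lower. The median was -0.33, with 7 ratios above 0 and 20 below. *RVE1*, a morning transcription factor, had 32.7, 38.5 and 7.51 FPKM, a ratio of -2.34. *CCA1*, a core morning component, had 86.2, 90.0 and 39.4 FPKM, and *RVE8*, its relative, had 61.0, 52.8 and 24.8. *LHY*, the partner of *CCA1*, did not pass 2-fold (ratio -0.90). At the first 3 genes the wild type and *mms19-1* were close and *abo4* stood apart. *CDF1* and *CDF2*, DOF factors that repress flowering, had ratios of -1.10 and -1.04. The time of harvest of each library is not given in the sources used here.

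Iron genes split into both directions, 3 higher and 3 lower of 32. *NAS2*, a nicotianamine synthase for metal transport, had 1.32, 0.410 and 4.35 FPKM (ratio 3.12) and reached the filter only through *abo4*. *IRT1*, the main iron importer of the root, had 14.5, 7.30 and 17.5. *CYP82C4*, a root enzyme of iron deficiency, had 1.84, 0.397 and 1.68 FPKM. These genes had their lowest value in *mms19-1*. The deficiency-induced regulators *bHLH100* (12.2, 12.6 and 4.67 FPKM) and *bHLH101* (21.1, 28.7 and 6.48 FPKM) had their lowest value in *abo4*, as had the short gene AT2G30766 (125, 112 and 52.8 FPKM). The 16 root markers had a median of 0.04 and ranged from -0.30 to 0.50, none past 2-fold.

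The silencing list gave 2 higher and 3 lower of 31 members, and the 3 lower were DNA glycosylases. *ROS1*, which removes 5-methylcytosine and is an iron-sulfur enzyme, had 27.5, 58.6 and 21.7 FPKM across wild type, *mms19-1* and *abo4*, a ratio of -1.43 (-1.48 to -1.39). It was high in *mms19-1* and near the wild type in *abo4*. At its relatives *abo4*, the lowest library at all 3 genes, stood further from the wild type than *mms19-1* did. *DML2* had 6.46, 6.26 and 2.81 FPKM and *DML3* had 2.14, 2.92 and 1.05. *DML2* is also in the most purine-rich group (56.1%). *VIM1*, a reader that helps maintain CG methylation, had 13.2, 14.2 and 30.3 FPKM, and *SDC*, an F-box gene normally silenced by methylation, had 0.371, 0.746 and 2.03. *SDC* reached the filter only through *abo4*. Of the study's primer list, 19 of 30 genes reached the filter, 6 higher and 2 lower. The 6 were *MMS19* itself, *MRD1*, *XRI1*, AT2G18193, AT5G60250 and AT4G22960. AT2G18193, annotated as a P-loop nucleoside triphosphate hydrolase, had 1.74, 9.51 and 47.6 FPKM (ratio 2.31). AT5G60250, a zinc-finger gene, had 1.71, 7.30 and 19.3, and AT4G22960 had 0.581, 4.79 and 10.02. At each of these last 3 genes, both mutants stood above the wild type and *abo4* highest. *WRKY40* (34.4, 9.90 and 16.0 FPKM, ratio 0.69) and *FDM2*, of RNA-directed DNA methylation (10.3, 4.03 and 4.56, ratio 0.17), were low in both mutants and within 2-fold of each other. The paper drew genes for quantitative RT-PCR from those up or down in both mutants in this same RNA-seq. For primer-list genes drawn so, a shared direction against the wild type was fixed by that choice.

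Of 16 dark, sugar and senescence genes, 2 were higher and 4 lower: *DIN2*, a β-glucosidase induced in the dark, had 1.26, 1.88 and 7.12 FPKM, and *SAG29*, a sugar transporter of senescence, had 50.1, 127 and 27.8. *BAM5*, a β-amylase, had 4.42, 52.2 and 22.5 FPKM, so both mutants were above the wild type. The auxin list had *IAA5* (ratio 1.37) and *IAA19* (1.31), both early auxin-response repressors, past 2-fold of 18. *PAP2*, a MYB activator of anthocyanin synthesis, was the one of 20 flavonoid genes past the limit (3.51, 1.22 and 3.81 FPKM). *ELIP1*, a light-stress protein, was the one of 31 photosystem and Rubisco genes (ratio -1.46). None of the 26 glucosinolate, 16 heat shock, 13 phosphate starvation or 17 nitrate and sulfur genes was past 2-fold. The heat shock list does not hold every heat shock factor. Outside it, *HSFA6A* was among the lowest members, with 17.3, 19.9 and 1.93 FPKM (wild type, *mms19-1* and *abo4*, ratio -3.29). *HSFA3*, also outside it, was in the higher set.

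A further set was gathered by base composition. It was not separate from the groups above, since it also held abscisic acid and late embryogenesis genes such as *RD29B*, *RAB18* and *LEA7*. Members were put into 20 groups of equal size by the purine share (A and G) of the longest annotated transcript. In the most purine-rich group, from 55.9% upward, 92 of 985 members were more than 2-fold lower in *abo4* (9.34%) and 24 higher, while in the other 19 groups together 1.89% were lower and 2.05% higher. That group held 20.1% of all lower members. The contrast was largest for long transcripts: of its 134 members of at least 3000 nt, 36 (26.9%) were lower and none higher, against 0.735% lower among the 2041 other members of that length. At 80 of the 92 genes the wild type was nearer to *mms19-1* than to *abo4*. The part of purine content in the lower set was not tested, and 365 members remained lower without this group beside 390 higher.

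**Figure D4:**
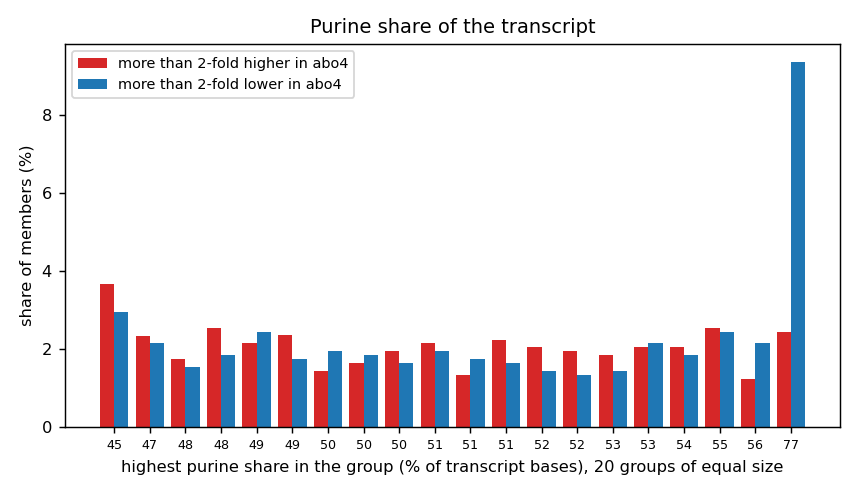
Share of members (y axis, %) more than 2-fold higher (red) and lower (blue) in *abo4* than in *mms19-1*, in 20 groups of equal size ordered by the purine share of the transcript; the x axis gives the highest purine share in each group. The last group has 9.34% lower, against 1.89% in the other 19 together.

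Among the 92 genes were several for coiled-coil and chromatin proteins. *CIP1*, whose product interacts with the light-signalling ubiquitin ligase COP1, had 52.1, 47.7 and 6.35 FPKM across wild type, *mms19-1* and *abo4*. AT5G40450, a very long gene annotated as A-kinase anchor-like, had 34.9, 34.3 and 4.84, and AT5G40340, with a Tudor/PWWP domain, had 46.8, 44.3 and 6.89. The DEK-domain chromatin gene AT5G55660 had 65.6, 59.3 and 11.1 FPKM and its relative AT4G26630 had 166, 148 and 29.9. All 4 lamina-like *LINC* genes were lower, *LINC1* with 58.7, 54.7 and 13.4 and *LINC2* with 16.6, 15.9 and 2.92 FPKM. Of the cohesin and condensin family, *TTN7* (ratio -1.175), *TTN8* (-1.71) and the gene annotated as *SMC3* (-1.18) were past the limit as well. The latter is the neighbour of AT5G48610 on chromosome 5 and a different gene from *TTN7*. For each of these genes the wild type and *mms19-1* were within 1.5-fold of each other.

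The most purine-rich run of 120 coding bases within 1 exon is shown for 2 of them and, for contrast, for the reference gene *ACT7*, an actin (ratio 0.26). Capitals mark A and G, the strand is that of the transcript, and coordinates are TAIR10.1.
AT5G40450 (chr5:16187266-16187385, minus strand): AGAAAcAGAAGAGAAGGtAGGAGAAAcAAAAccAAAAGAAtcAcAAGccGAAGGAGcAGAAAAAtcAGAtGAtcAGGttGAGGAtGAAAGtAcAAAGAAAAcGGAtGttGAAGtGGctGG
AT5G40340 (chr5:16134315-16134434, minus strand): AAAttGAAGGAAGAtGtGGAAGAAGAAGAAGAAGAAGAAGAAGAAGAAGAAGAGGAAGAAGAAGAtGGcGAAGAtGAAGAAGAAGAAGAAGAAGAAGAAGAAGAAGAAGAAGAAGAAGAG
ACT7 (chr5:3053044-3053163, plus strand): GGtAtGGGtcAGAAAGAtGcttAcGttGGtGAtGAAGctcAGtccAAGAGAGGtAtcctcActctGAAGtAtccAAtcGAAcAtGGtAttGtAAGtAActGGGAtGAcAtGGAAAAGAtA
Purines made up 92 of the 120 bases in the run of AT5G40450, 113 in that of AT5G40340 and 72 in that of *ACT7*.

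At a few genes one library was almost empty while the others were not. Beside *MMS19*, *HEI10* (chr1:19963267-19966952), an E3 ligase of meiotic crossovers, had 14.7, 1.05 and 15.7 FPKM across wild type, *mms19-1* and *abo4*, a ratio of 3.79. *MRD1* (chr1:19963047-19964712), a gene of the study's primer list, overlaps it on the opposite strand and had 2.28, 0.0415 and 1.74 FPKM. The sources used here give no strand for the reads, so reads of the pair cannot be told apart. *PCR1*, a membrane protein of metal resistance, had 2.29, 0.0694 and 2.73. In these cases *mms19-1* was the low library. *PAO2*, a polyamine oxidase, was almost unread in the wild type and *mms19-1* (0.0117 and 0.0212 FPKM) and had 7.89 in *abo4*, about 748 reads. It reached the filter only through *abo4*.

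Genes nearly absent from *abo4* formed the counterpart. AT5G33370, a GDSL-type esterase or lipase, had 11.5, 15.4 and 0.252 FPKM across wild type, *mms19-1* and *abo4* (ratio -5.46), about 1082 reads in *mms19-1* against 17.1. *GLC*, an acyltransferase-type gene, had 3.13, 2.88 and 0.0202. *ZIP7*, a metal transporter (2.29 and 2.58 FPKM in the other libraries), and AT1G06100, a fatty acid desaturase-type gene (2.87 and 3.13), were listed at 0 in *abo4*. No fold is given for these, since an exact 0 in this table can be a failed estimate.

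The wild type was nearer to *mms19-1* than to *abo4* at most genes that set the mutants apart. Of the 414 higher members it lay between the mutants at 295, below both at 90 and above both at 29, and it was nearer to *mms19-1* on the log2 scale at 70.5%. Of the 457 lower members it lay between at 326, above both at 109 and below both at 22, and was nearer to *mms19-1* at 75.7%. In the higher set, *abo4* was more than 2-fold above the wild type at 207 members and *mms19-1* more than 2-fold below it at 87. In the lower set, *abo4* was more than 2-fold below the wild type at 256 and *mms19-1* more than 2-fold above it at 83. The wild-type column had no part in the ratio.

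Along the chromosomes the share of members past 2-fold ran from 1.87% higher and 2.11% lower on chromosome 4 to 2.35% and 2.68% on chromosome 2. In windows of 50 consecutive members, a median of 2 and at most 9 were past the limit, and 49 of 391 windows had none. A window with 9 was chr2:3045523-3476278, around the mitochondrial DNA insertion of chromosome 2, whose loci have near-identical copies and are uncertain. Another, on chromosome 4, held *SESA1*, *SESA2*, *SESA3* and *RD26*, and the remaining one lay on chromosome 3. Neighbouring members were both past 2-fold in 62 pairs, of which 46 had the same direction and 6 had overlapping genes. In all, 871 of the 19771 members were past 2-fold, and the number of pairs that this share alone would give was not computed. Pairs of related genes, such as *SESA1* and *SESA2*, and few-read loci, such as AT2G15029, are included. Protein-coding genes as a whole gave 1.87% higher and 2.09% lower. Short loci had larger shares in both directions: protein-coding transcripts under 300 nt gave 19.8% and 19.0%, miRNA genes 16.7% and 24.4%, tRNA genes 22.7% and 22.7%, and snoRNA genes 23.7% and 13.6%.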

How the data were processed

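The authors sequenced polyadenylated RNA of 3 genotypes, 1 library each, aligned the reads to TAIR10 with TopHat (2.0.12) and Bowtie, and deposited FPKM values from Cufflinks (2.0.1), with Cuffdiff named for their comparisons. Handling of multi-mapping reads and strand is not given in the sources used here. Entries were joined by locus, keeping the one with the larger mean. Members were loci whose 3 columns averaged 1 FPKM or more, and the ratio was log2 of the *abo4* over the *mms19-1* value after adding 0.1 FPKM. Depth was estimated from whole-read steps of short transcripts (modelled fragments of 200 nt, SD 80), of which 93.0% to 95.9% of values were whole within 0.05 reads. Intervals at 95% cover counting error only. Lengths, base composition, coordinates and sequences came from RefSeq TAIR10.1, whose nuclear chromosome lengths equal those of TAIR10. Named genes were the 15 highest and 15 lowest protein-coding members with 1 FPKM added, up to 4 list genes per direction, the mutated genes and the study's primer list. Other named genes were chosen after their values were seen, as were the purine groups. Members and lists were chosen with earlier results of these data known. Alternatives varied the added value, filter, scaling and limit. With 1 library per genotype no test was made. Python 3.11.15, numpy 2.4.6, pandas 2.3.3, scipy 1.17.1 and matplotlib 3.10.9 were used, and the scripts were tested on simulated data. Some items are not reported here.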

Additional observations from a re-analysis of the deposited data

How the results depend on the processing

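With 1 FPKM added in place of 0.1, 258 members were more than 2-fold higher and 335 lower. Without the filter on mean FPKM the counts were 950 and 862, with a mean of at least 10 FPKM 106 and 212, with a 4-fold limit 104 and 131, and by the counting interval alone 190 and 261. The counts stayed within 1.5 times of 414 and 457 with 0.01 FPKM added (443 and 468), a filter on the mutants only (426 and 452), centring (402 and 469), equal column sums (398 and 474), summed entries (414 and 457), protein-coding genes only (357 and 399) and, both chosen after seeing the data, without few-read members (362 and 405) or the most purine-rich group (390 and 365). The median ratio of 0.01 was -0.010 with a mean of at least 10 FPKM, -0.0071 with equal column sums and 0.018 without the purine-rich group. With 1 FPKM added, the silencing genes lower were 1 instead of 3, the flowering genes lower 1 instead of 4, and the replication, mitotic and abscisic acid genes higher 0 instead of 1 each. Without the purine-rich group the DNA damage genes lower were 0 instead of 1. The cause was not tested. Of 113 named genes with a ratio, 101 were past 2-fold, 75 with 1 FPKM added and 99 with equal column sums, and none turned direction under these settings. No paired analysis was possible because each genotype had 1 library, and leaving out a replicate was not possible for the same reason.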

Other observations

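Epidermal genes were gathered after their values were seen, and 2.09% of all members were higher and 2.31% lower in *abo4*. Of 15 trichome and epidermal fate genes, 6 were more than 2-fold lower than in *mms19-1* and none higher, with a median log2 ratio of -0.69. *GL1* (MYB0 in the annotation), a MYB factor that starts trichome formation, had 2.51, 3.79 and 0.708 FPKM (wild type, *mms19-1* and *abo4*). Its relative *MYB23* had 7.44, 8.07 and 1.73, and *GL2*, a homeodomain factor of the same pathway, had 7.50, 6.86 and 2.61. Of 21 cutin and wax genes 7 were lower and none higher, with a median of -0.34. *CER1*, an enzyme of wax alkane synthesis, had 81.0, 108 and 39.6 FPKM, and *SHN2*, an activator of cuticle genes, had 1.85, 2.29 and 0.440. The other 9 trichome and 14 cutin and wax genes were within 2-fold, up to ratios of 0.77 for *TCL1*, a repressor of trichomes, and 0.45 for *LTL1*, a lipase gene.

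Other families were counted in the same way, again beside 2.09% higher and 2.31% lower among all members. Calmodulin and EF-hand genes gave 8 higher and 0 lower of 99, TIR-NBS genes 3 and 0 of 64, cytochrome P450 genes 3 and 11 of 150, and ribosomal protein genes 1 and 1 of 317. These lists were chosen with the values in view and support nothing further.

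Below the filter, 6273 loci were above 0 in a mutant, and *abo4* was above *mms19-1* at 3871 of them and below it at 2402. The 1180 pseudogenes among them gave 842 and 338, and their summed FPKM was 54.7, 61.6 and 84.5 FPKM (wild type, *mms19-1* and *abo4*). These counts take any difference between values near the floor. Past 2-fold, 8.54% of the 6273 loci were higher and 6.46% lower in *abo4*, against 5.08% and 2.12% of the pseudogenes. The median log2 ratio was 0.10 in both sets.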
